A study of Mus musculus with 4 samples.

Results

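The transcripts described here are those of 8 matrix metalloproteinases (Mmp2, Mmp3, Mmp9, Mmp10, Mmp11, Mmp13, Mmp14 and Mmp15) and of the tissue inhibitors Timp1 and Timp3. They were chosen by gene name: every non-control probe whose gene name was one of these 10 was taken, which gave 11 of the 39429 probes and 10 of the 31896 gene names on the array. The brightest probe gave the value of a gene with more than 1. Total RNA of tumour-derived mouse mammary cancer cells was measured on single-colour Agilent arrays to find genes that differ with loss of the p21-activated kinase Pak1. All cells came from MMTV-Neu mice, so both groups carry a Neu (Her2) transgene under a mammary tumour virus promoter that is active in mammary epithelium. There were 2 samples labelled Pak1-/- and 2 labelled Pak1+/+. All 4 were grown in low-calcium medium with horse serum, kept without serum for 3 h and then given EGF, the ligand of the epidermal growth factor receptor, for 15 min. The design text gives different tumours for the samples of a group, the methods name cell lines by genotype only, and neither gives the age of the mice or the kind of Pak1 allele. If the samples of a group were repeats of 1 line, errors and p-values here would measure only the spread between such repeats.

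Matrix metalloproteinases are zinc-dependent proteases that cut collagens, laminins, proteoglycans and other proteins outside the cell. Most are secreted as inactive proenzymes, while the membrane-type enzymes are activated inside the cell and stay at its surface. TIMPs bind the active site of these enzymes and block it, and in mammary tumours both the tumour cells and the stroma around them can make proteases and inhibitors.

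The genes with the largest differences lay at both ends of the family. In the cells labelled Pak1-/-, the membrane-type protease Mmp14 and the inhibitors Timp1 and Timp3 were higher, together with Mmp11. The secreted proteases Mmp2, Mmp3, Mmp10 and Mmp13 were lower. Mmp15 did not pass the test and Mmp9 was too dim to be tested. Thus 9 of the 10 genes were tested, 4 were called higher and 4 lower at an adjusted p under 0.05. Over all 22006 genes tested in the same way, 22.8% were called higher and 28.2% lower, 51.0% in all, so that a call by itself was common on these arrays. At a difference of at least 2-fold, 6 of the 9 were called, 3 in each direction, against 12.6% of all genes tested (6.99% higher and 5.61% lower). Values of both groups were fully apart for 8 of the 9, against 77.5% of all genes tested. The median difference was 0.13 on the log2 scale for the 9 genes and -0.05 for all genes tested. Of the 9, 6 were well above background on all 4 arrays. Mmp3 and Mmp13 passed the filter on dim probes through the arrays labelled Pak1+/+ alone, so that lower was the only call open to them. The 10 genes were also chosen with earlier results of these data known. These counts are therefore a description and no test of the family against all genes.

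**Figure D1:**
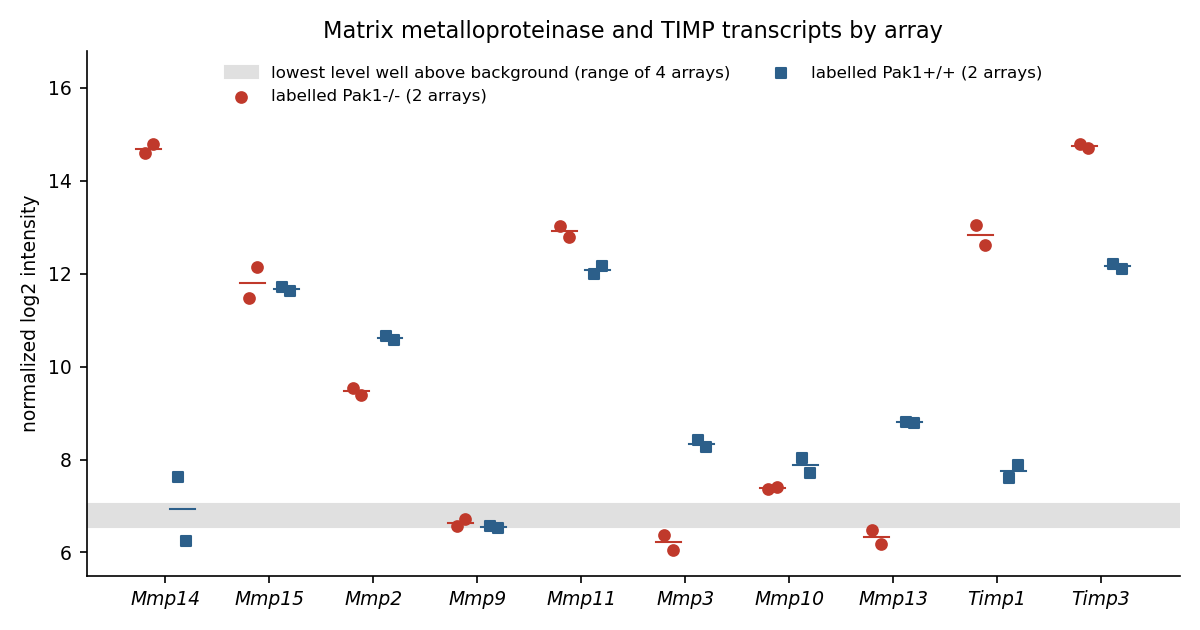
Normalized log2 intensity (vertical axis) of the brightest probe of each of the 10 genes on the 4 arrays. Circles are the 2 arrays labelled Pak1-/-, squares the 2 labelled Pak1+/+, short lines the group means, and the grey band spans the lowest level that counted as well above background on each array (6.55 to 7.03). Mmp14, Timp1 and Timp3 lie far higher in the circles, Mmp3 and Mmp13 lie below the band in the circles, and only for Mmp15 among the tested genes do the groups overlap.

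Some facts bear on all values. The median spot intensity was 322 to 331 and the median local background 39.0 to 42.0, with 62.2% to 70.4% of probes well above background. Arrays of 1 group correlated at r = 0.997 across probes, and arrays of different groups at 0.954 to 0.959 (genes are not independent replicates). All 4 arrays lay on 1 slide, with the arrays labelled Pak1-/- in positions 1 and 2 and the others in positions 3 and 4, so position and genotype cannot be told apart. The Pak1 probe read 12.21 and 12.25 in the arrays labelled Pak1-/- and 12.04 and 12.04 in the others, a difference of 0.19 (SE 0.07, adjusted p = 0.070). It was therefore not lower where the labels say Pak1 is absent. Across 15 alternative settings the difference stayed between 0.17 and 0.27, and it passed the threshold, as higher, in 1 of them. Where this probe lies relative to the deleted part of the gene is not given in the sources used here, so that it may check nothing, and every direction below is that of the labels. Of 7 epithelial markers, 6 were well above background on all 4 arrays, among them Krt8, Krt18 and Epcam. Krt19 was so on only 1 of the 2 arrays labelled Pak1+/+. Since 8 of 9 leukocyte markers were also well above background on all 4 arrays, detection alone does not show the cell type.

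Mmp14 had the largest difference of the 10 genes. It encodes MT1-MMP, a transmembrane collagenase that also activates the Mmp2 proenzyme. The array carries 1 probe for it, printed here because the difference rests on this single 60-base sequence (mm9 chr14:55058775-55058834, plus strand).
Mmp14 probe: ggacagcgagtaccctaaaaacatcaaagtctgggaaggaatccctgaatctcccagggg

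Before normalization the Mmp14 spot had a mean intensity of 22907 and 29124 on the arrays labelled Pak1-/-, over a local background of 44.0 and 41.0. On the arrays labelled Pak1+/+ it had 184 and 71.0, over 42.0 and 49.0. The signal was thus 521 and 710 times the background in the first group, and 4.38 and 1.45 times in the second, where only replicate 1 of 2 was well above background.

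The normalized log2 values of Mmp14 were 14.59 and 14.78 in the cells labelled Pak1-/- and 7.62 and 6.24 in those labelled Pak1+/+. Both values of the first group were far above both of the second. The value of 6.24 lies below the detection limit of its array (7.03), so it is no measured level and the spread within the second group is not known. The fitted difference, which includes it, was 7.76 on the log2 scale (SE 0.46, 95% interval 6.54 to 8.98, adjusted p = 0.000511). Against Pak1+/+ replicate 1 alone, where the probe was detected, the difference was 7.07.

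**Figure D2:**
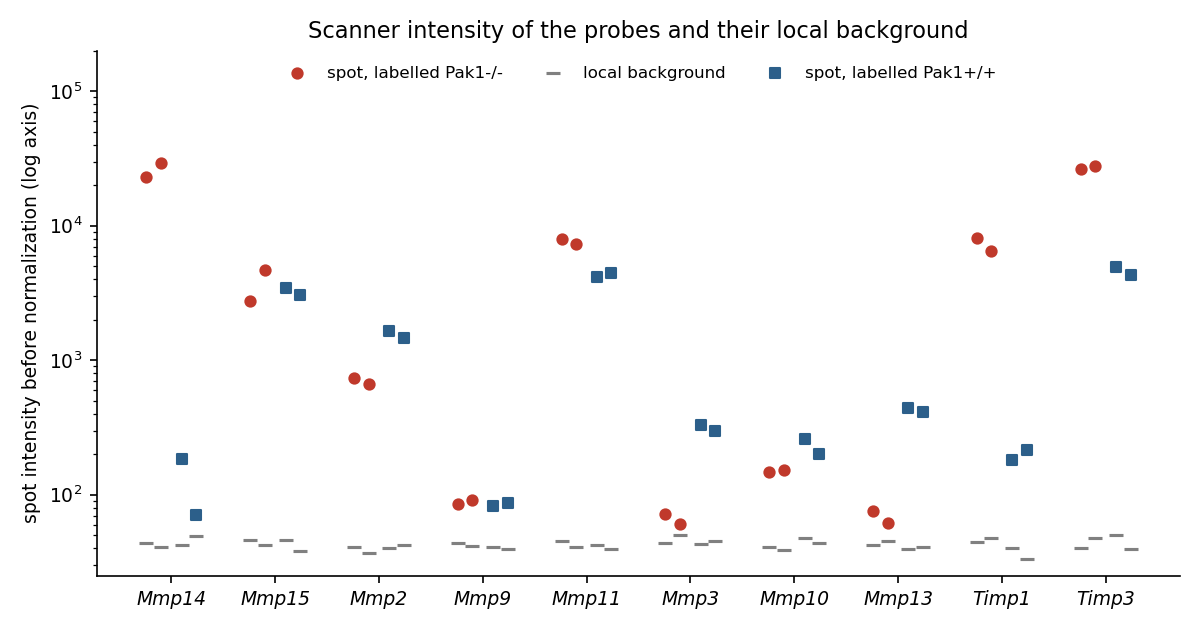
Spot intensity before normalization (vertical axis, logarithmic) for the brightest probe of each gene, with the arrays labelled Pak1-/- as circles, those labelled Pak1+/+ as squares, and the local background of each spot as a grey dash. For Mmp9, which has 10 spots, the mean over its spots is shown. The Mmp14 spot stands at 22907 and 29124 in the circles and close to its background in 1 square, and the 4 Mmp9 means stay between 82.9 and 91.8.

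Mmp15, the other membrane-type enzyme among the 10 genes (MT2-MMP), had log2 values of 11.48 and 12.14 in the cells labelled Pak1-/- and of 11.72 and 11.63 in those labelled Pak1+/+. The second group fell between the 2 values of the first, so the groups overlapped. The difference was 0.13 (SE 0.23, adjusted p = 0.664), with a 95% interval from -0.47 to 0.73, which does not show that the levels were alike. A single array set its sign: without Pak1-/- replicate 1 it was 0.46 (adjusted p = 0.033), and without Pak1-/- replicate 2 it was -0.20 (adjusted p = 0.152). Wherever 1 array is left out, its group holds a single array, which is assumed to vary like the pair of the other group, the source of the spread together with the prior over all probes.

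The gelatinases cut denatured collagen and the type IV collagen of basement membranes. Mmp2 had log2 values of 9.54 and 9.39 in the cells labelled Pak1-/- and of 10.67 and 10.56 in those labelled Pak1+/+. Both values of the first group were lower than both of the second, and each pair was tight. Mmp2 fell by 1.15 on the log2 scale (SE 0.09, adjusted p = 0.000972), a 2.22-fold lower level. The transcripts of Mmp14 and of the proenzyme that it activates thus went opposite ways in these samples. Mmp9, the other gelatinase, read 6.58 and 6.71 against 6.57 and 6.52. Its 10 spots were well above background in 2, 3, 0 and 1 cases on the 4 arrays in the same order, too few for the probe to count as detected on any array, so no difference is given for it.

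Mmp3 and Mmp10, the stromelysins, cut a broad range of matrix proteins and can activate other proenzymes of the family. Mmp3 read 8.42 and 8.27 in the cells labelled Pak1+/+, and 6.37 and 6.06 in those labelled Pak1-/-, where neither array was well above background. It has only a bound there and was at least 3.30-fold lower in the cells labelled Pak1-/-. That ratio sets the mean of the brighter group against the lowest detectable level where the probe is dim. The fitted difference, which depends on how dim values are treated, was -2.12 (SE 0.13, adjusted p = 0.000547). Mmp10 was dimmer overall but detected on all 4 arrays, at 7.36 and 7.41 against 8.04 and 7.72. Its groups did not overlap, and the fall of 0.49 (SE 0.13, adjusted p = 0.029) was the smallest of the called differences. It passed the threshold no longer when Pak1-/- replicate 1 (adjusted p = 0.123), Pak1-/- replicate 2 (0.101) or Pak1+/+ replicate 1 (0.078) was left out, and without the last its fall was 0.33.

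Mmp13, the main interstitial collagenase of the mouse, behaved like Mmp3. It read 8.81 and 8.79 in the cells labelled Pak1+/+, the closest pair of the 11 probes, and 6.49 and 6.19 in those labelled Pak1-/-, on neither of which it was well above background. Mmp13 was at least 4.54-fold lower in the cells labelled Pak1-/-, with a fitted difference of -2.46 (SE 0.12, adjusted p = 0.000292).

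Mmp11, or stromelysin-3, is activated inside the cell by furin and cuts few matrix proteins. It was the only gene of the 10 with more than 1 probe. The brighter one read 13.03 and 12.79 in the cells labelled Pak1-/- and 11.99 and 12.17 in those labelled Pak1+/+, a difference of 0.83 (SE 0.12, adjusted p = 0.00529) or 1.78-fold. The second probe read 11.88 and 11.59 against 11.00 and 11.14, a difference of 0.67 (SE 0.12, adjusted p = 0.011). Neither probe had overlapping groups, and both rose. Over all probes of the array that were tested, 51.9% were called. Of the secreted enzymes among the 10 genes, Mmp11 was thus the only one called higher.

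Both inhibitors were higher. Timp1, a secreted inhibitor that also binds the Mmp9 proenzyme and holds Mmp14 weakly, read 13.06 and 12.61 in the cells labelled Pak1-/- and 7.61 and 7.89 in those labelled Pak1+/+, all well above background. The difference of 5.08 (SE 0.19, 95% interval 4.59 to 5.57, adjusted p = 0.000161) was a 33.9-fold higher level, and 57 of the 22006 genes tested rose more. Before normalization its spot intensity was 8056 and 6491 against 181 and 215.

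Timp3, which binds to the extracellular matrix and also holds several ADAM and ADAMTS proteases, was already bright in the cells labelled Pak1+/+, at 12.22 and 12.11. It read 14.80 and 14.71 in those labelled Pak1-/-, so the groups were far apart and each pair was close. The difference of 2.59 (SE 0.08, adjusted p = 0.000117) was a 6.01-fold higher level. Across the 15 alternative settings it stayed between 2.53 and 2.67, the narrowest range of the called genes among the 10.

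These are RNA levels in bulk samples, in which fewer cells of a type and less RNA per cell cannot be told apart. Markers of other cell types were therefore set beside them, with 22.8% of all genes tested called higher and 28.2% lower as the share to read their counts against. Of 10 fibroblast markers, 5 were tested and 2 were called higher, Postn (at least 10.4-fold, dim on both arrays labelled Pak1+/+) and Col1a1 (difference 1.12), while Dcn, Lum, Col3a1 and Pdgfrb were well above background on no array. Their summed level was 2477 to 3689 in the arrays labelled Pak1-/- and 1383 to 1993 in the others, in normalized intensity. Without Postn it was 1670 to 1862 and 1308 to 1914, and the groups overlapped. Of 9 leukocyte markers, 8 were tested and 4 were called lower (S100a9 by -3.44, S100a8 by -2.38, Adgre1 by -1.05 and Ptprc by -0.45), and their summed level was 57950 to 79895 against 74653 to 77695. A single bright gene, Itgam, made up 50.5% to 86.3% of that sum, which therefore says little of the other markers. That share rests on 1 bright Itgam probe, and its other probes read 7.35 to 8.23 and were not called. Of 5 endothelial markers, 3 were tested and 0 were called by limma on their brightest probes, nor was any of these at an unadjusted p under 0.05, with Tek and Emcn well above background on no array and sums of 10007 to 10383 against 9063 to 10874, of which Kdr made up 89.5% to 91.2%. A second, dimmer Kdr probe was called higher (at least 2.17-fold, adjusted p = 0.000463), with neither array labelled Pak1+/+ well above background. None of the 3 adipocyte markers could be tested. Their sums were 263 to 283 against 324 to 328, and Adipoq was well above background on no array. Of 7 epithelial markers, 5 were called higher (Krt14 by 2.83, Cdh1 by 1.19, Krt8 by 0.57, Krt5 by 0.50 and Krt18 by 0.27) and 0 lower. At an unadjusted p under 0.05 in limma, Epcam was lower, by -0.23. Their sums were 993425 to 1009141 against 728576 to 731325, of which Krt18 made up 47.4% to 54.6%. The part of these cell types in the protease and inhibitor values was not tested.

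Promoters are shown for some of the genes called lower and some of those called higher, and a shared cause was not tested. The RefSeq table of GRCm38.p6 held a promoter for 8 of the 10 genes (none for Mmp2 and Mmp9). The 250 bases before the annotated start are printed 5′ to 3′ for the secreted proteases Mmp3, Mmp10 and Mmp13, which fell, and for Mmp14 and Timp1, which rose most. Capitals mark the AP-1 motif TGANTCA, the site that Fos and Jun factors bind.
Mmp3 (chr9:7445572-7445821, plus strand): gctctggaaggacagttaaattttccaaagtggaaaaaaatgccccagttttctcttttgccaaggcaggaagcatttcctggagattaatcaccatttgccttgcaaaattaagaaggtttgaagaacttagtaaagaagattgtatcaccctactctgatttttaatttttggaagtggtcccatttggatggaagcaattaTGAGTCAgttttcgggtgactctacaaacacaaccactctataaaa
Mmp10 (chr9:7502092-7502341, plus strand): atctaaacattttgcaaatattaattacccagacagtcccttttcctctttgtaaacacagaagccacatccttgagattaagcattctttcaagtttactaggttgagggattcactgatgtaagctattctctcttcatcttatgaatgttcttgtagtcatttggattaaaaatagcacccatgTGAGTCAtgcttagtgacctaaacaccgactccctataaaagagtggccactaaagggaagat
Mmp13 (chr9:7272264-7272513, plus strand): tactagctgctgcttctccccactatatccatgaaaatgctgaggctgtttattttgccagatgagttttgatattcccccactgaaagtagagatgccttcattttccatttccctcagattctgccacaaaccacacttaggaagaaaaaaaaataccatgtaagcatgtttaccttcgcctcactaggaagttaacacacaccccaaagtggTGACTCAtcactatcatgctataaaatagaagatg
Mmp14 (chr14:54431348-54431597, plus strand): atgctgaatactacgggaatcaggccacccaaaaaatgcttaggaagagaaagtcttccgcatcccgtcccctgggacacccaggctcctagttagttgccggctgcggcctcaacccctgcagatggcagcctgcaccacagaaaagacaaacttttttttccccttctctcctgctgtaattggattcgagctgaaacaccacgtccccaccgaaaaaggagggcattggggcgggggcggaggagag
Timp1 (chrX:20869916-20870165, plus strand): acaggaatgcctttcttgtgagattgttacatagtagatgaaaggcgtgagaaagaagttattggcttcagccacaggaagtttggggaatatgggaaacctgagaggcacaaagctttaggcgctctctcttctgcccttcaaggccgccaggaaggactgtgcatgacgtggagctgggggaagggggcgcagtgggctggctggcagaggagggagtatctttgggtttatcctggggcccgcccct

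The AP-1 letters stood 46 bases before the start in Mmp3 (TGAGTCA), 63 before it in Mmp10 (TGAGTCA) and 35 before it in Mmp13 (TGACTCA). They were not in the windows of Mmp11, Mmp14, Mmp15, Timp1 and Timp3. Both strands were searched, and 6.75% of the 32851 promoters in the table held the motif. The TATAAA box lay 7, 29 and 16 bases before the start in Mmp3, Mmp10 and Mmp13. It was in none of the other 5 and in 12.4% of all promoters. The Ets motif AGGAAG was in Mmp3, Mmp13, Mmp14, Timp1 and Timp3 and in 29.5% of all promoters. The core of the interferon-stimulated response element (TTTC, then any 2 bases, then TTTC) was in Mmp13 alone and in 2.98% of all promoters. No motif overlapped the AP-1 match in these windows. These are matches of letters, not sites shown to be used, and a link between motif and direction was not tested. Mmp2, which fell, had no promoter here, and Mmp15 was not called. Mmp3 and Mmp13 could only be called lower, and the call of Mmp10 was lost under some settings.

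The 3 genes with an AP-1 match also lie together. Mmp3, Mmp10 and Mmp13 belong to a cluster of metalloproteinase genes on mouse chromosome 9, and the array held probes for 10 genes of it over 415 kb (mm9, by probe position). Their order was Mmp13, Mmp12, Mmp1b, Mmp3, Mmp1a, Mmp10, Mmp8, Mmp27, Mmp20 and Mmp7. Only Mmp10 and Mmp7 were detected in both groups, and both were called lower in the cells labelled Pak1-/-, as were 28.2% of all genes tested. Mmp13, Mmp1b and Mmp3 were detected in the arrays labelled Pak1+/+ alone, so lower was the only call they could get. The other 5 were too dim to be tested. Neighbouring genes of 1 cluster are not independent, and Mmp1a and Mmp1b are related copies for which shared probe signal was not tested.

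**Figure D3:**
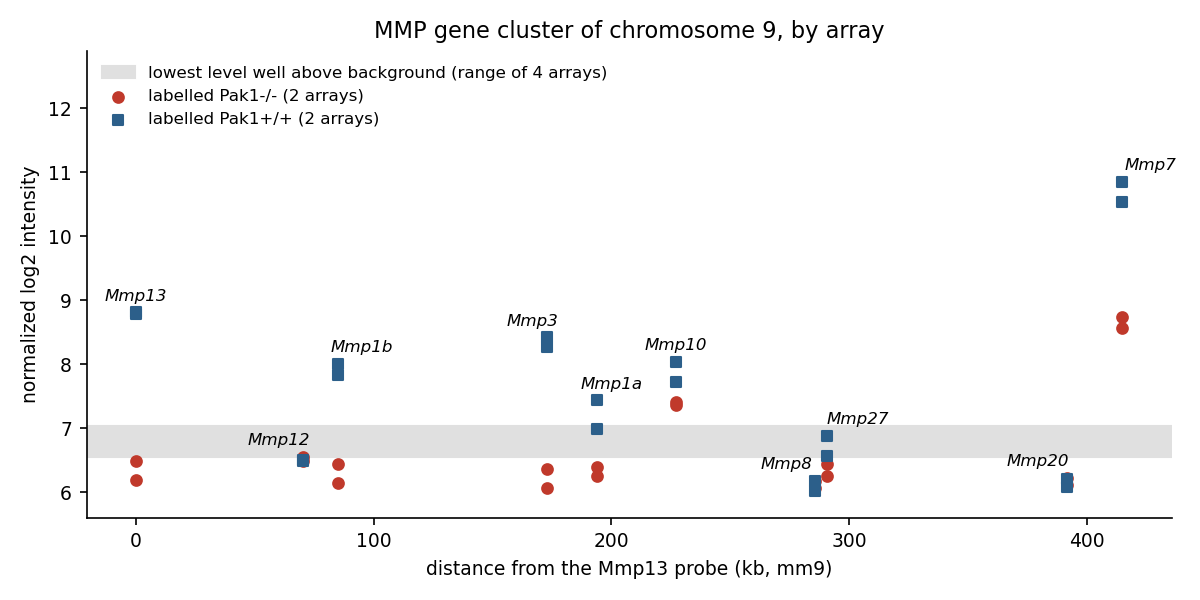
Normalized log2 intensity (vertical axis) of 10 genes of the chromosome 9 metalloproteinase cluster against the distance of their probes from the Mmp13 probe in kb. Circles are arrays labelled Pak1-/-, squares arrays labelled Pak1+/+, and the grey band spans the lowest level well above background on each array. The squares stand above the circles for Mmp13, Mmp1b, Mmp3, Mmp10 and Mmp7, and Mmp12, Mmp8, Mmp27 and Mmp20 stay in or below the band on all arrays.

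The rest of the family held 17 further genes, of which 9 were tested, 2 were called higher and 2 lower, with a median difference of -0.01. Of these calls, 1 in each direction (Mmp25 higher, Mmp1b lower) was fixed by detection in a single group. Over all genes tested, 22.8% were called higher and 28.2% lower. Mmp7, or matrilysin, a small secreted protease made by epithelial cells, had values of 8.56 and 8.73 in the cells labelled Pak1-/- and 10.54 and 10.85 in the others. It fell by 2.05 (SE 0.13, adjusted p = 0.000625). Mmp1b, a relative of the interstitial collagenase, read 6.15 and 6.44 against 8.01 and 7.83 and was at least 2.46-fold lower, being dim on both arrays labelled Pak1-/- (adjusted p = 0.00105).

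Mmp25 is a membrane enzyme known from leukocytes. It read 7.13 and 7.19 against 6.36 and 6.28 and was at least 1.22-fold higher (adjusted p = 0.00132). Being detected in the arrays labelled Pak1-/- alone, it could only be called higher. Mmp23 read 7.81 and 7.69 against 7.27 and 7.12, a difference of 0.55 (adjusted p = 0.00763), with 1 of the 2 arrays labelled Pak1+/+ well above background. Both lay near the detection limit.

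Mmp21 was named for its bound alone. It read 6.38 and 6.38, dim on both arrays labelled Pak1-/-, against 7.27 and 9.12, and was at least 2.98-fold lower, but its adjusted p of 0.063 missed the threshold with replicates so far apart. The bound rests on Pak1+/+ replicate 2, without which it was 1.57-fold. A second Mmp21 probe was well above background on no array. Timp2, picked out after its values were seen because it is the partner through which Mmp14 binds the Mmp2 proenzyme, was bright on all arrays, at 16.75 and 16.41 against 16.34 and 16.41. Its difference was 0.20 (SE 0.13, 95% interval -0.15 to 0.55, adjusted p = 0.258). It passed the threshold without Pak1-/- replicate 2 (0.37, adjusted p = 0.041).

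**Figure D4:**
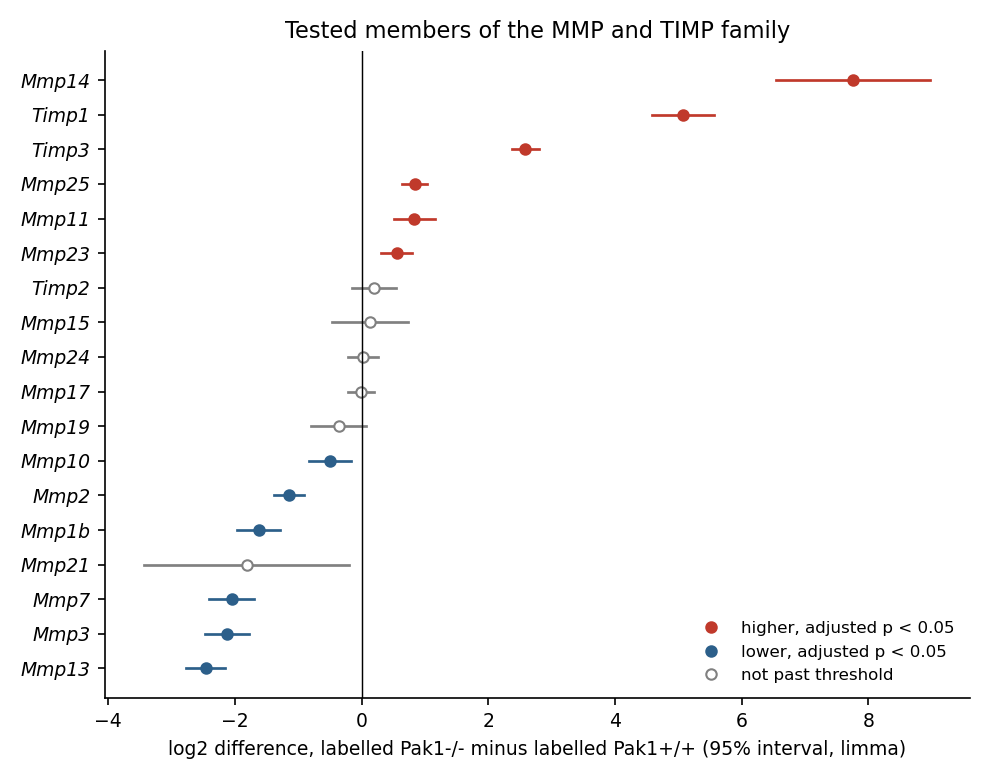
Log2 difference, labelled Pak1-/- minus labelled Pak1+/+ (horizontal axis), with its 95% interval from limma for the family genes tested, 9 of the 10 chosen and 9 others. Filled points passed an adjusted p under 0.05 and open points did not. Mmp14 (7.76), Timp1 (5.08) and Timp3 (2.59) lie far to the right and Mmp13 (-2.46), Mmp3 (-2.12) and Mmp7 (-2.05) to the left, and for Mmp3, Mmp13, Mmp1b, Mmp21 and Mmp25 the fitted point involves a group that was dim on both arrays.

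Genes that activate, bind or hold these proteases were examined as a list of 17, of which 13 were tested, 6 were called higher and 4 lower (22.8% and 28.2% over all genes tested), with a median difference of 0.30. Lcn2, 1 of the 13, was saturated on all 4 arrays, so that no difference could be seen in it. Sparc, a matrix glycoprotein of remodelling tissue, read 12.45 and 11.99 in the cells labelled Pak1-/- and 8.77 and 9.03 in the others, a difference of 3.32 (SE 0.19, adjusted p = 0.000429). Its second probe was too dim to be tested. A2m, a plasma protein that traps proteases of many classes, rose by 1.35 (adjusted p = 0.00221), with 1 of the 2 arrays labelled Pak1+/+ well above background. Lrp1, the receptor that takes up such complexes, rose by 0.81 (adjusted p = 0.00247).

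Proprotein convertases cut the prodomains of the membrane-type enzymes and of Mmp11. They did not move one way: Pcsk7 rose by 0.85 (adjusted p = 0.00149) and Pcsk6 fell by 0.98 (adjusted p = 0.000856). Cd44, a hyaluronan receptor that holds Mmp14 and Mmp9 at the cell surface, fell by 0.86 (adjusted p = 0.00172), and its 3 other probes were lower as well. The other 4 genes called, named after their values were seen, were Plau (0.54), Furin (0.45), Reck (-0.34) and Plaur (-0.30). Furin missed the threshold without Pak1-/- replicate 1 (0.35, adjusted p = 0.081) or Pak1+/+ replicate 1 (0.37, 0.096). Reck missed it without Pak1-/- replicate 1 (-0.32, adjusted p = 0.053), Pak1+/+ replicate 1 (-0.35, 0.067) or Pak1+/+ replicate 2 (-0.32, 0.084), and as the mean of its probes (-0.25, adjusted p = 0.491). Reck, a membrane-bound inhibitor of these proteases, had a second probe that read 7.83 and 7.65 against 7.11 and 8.70 and did not pass (adjusted p = 0.815). Without Pak1-/- replicate 1, and likewise without Pak1+/+ replicate 1, Plau, Furin, Reck and Plaur all lost their call. Fewer probes were called over the whole array in both settings as well, so the loss is not particular to this list.

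The ADAM and ADAMTS proteases, relatives of which several are held by Timp3, made a list of 13 with 11 tested, and 6 were called higher and 0 lower (median difference 0.31), against 22.8% and 28.2%, together 51.0%, over all genes tested. Adamts1, which cuts proteoglycans such as versican, read 12.58 and 12.39 against 8.11 and 7.76, a difference of 4.55 (SE 0.15, adjusted p = 0.000121). Adamts15 rose by 2.77 (adjusted p = 0.000316) and Adamts4, an aggrecanase, by 2.01 (adjusted p = 0.000178). Smaller rises were those of Adam15 (0.84), Adamts9 (0.68) and Adam8 (0.31), and Adam8 missed the threshold when any 1 array was left out (adjusted p = 0.063 to 0.154). Past an unadjusted p of 0.05 alone were Adam9, higher by 0.25 (adjusted p = 0.068), and Adam12, lower with a difference of -0.23 (adjusted p = 0.080), but the dimmest of its 3 probes was called higher (0.30).

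**Figure D5:**
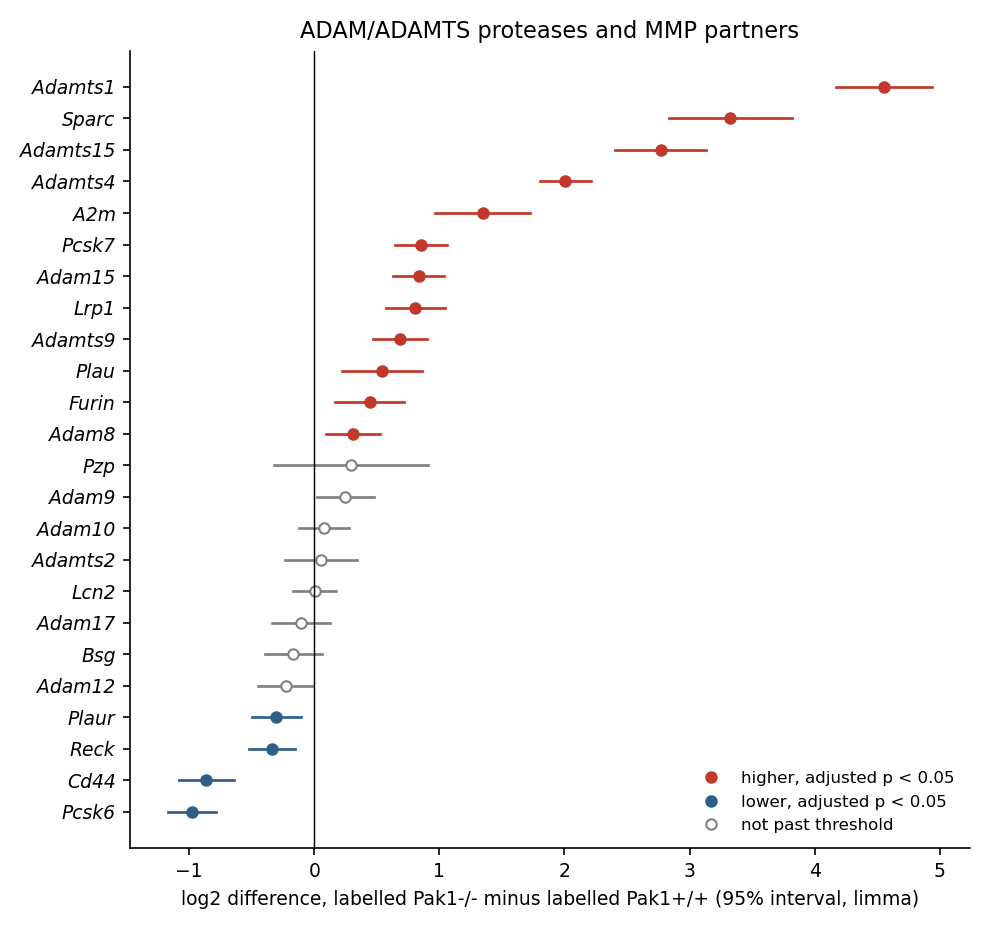
Log2 difference, labelled Pak1-/- minus labelled Pak1+/+ (horizontal axis), with its 95% interval from limma for the 13 tested genes of the list of activators, partners and other inhibitors and the 11 of the list of ADAM and ADAMTS proteases. Filled points passed an adjusted p under 0.05. Adamts1 (4.55), Sparc (3.32), Adamts15 (2.77) and Adamts4 (2.01) lie farthest to the right and Pcsk6 (-0.98) and Cd44 (-0.86) to the left.

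The genes whose pattern over the 4 arrays was most like that of Mmp14 were sought among 13287 named genes well above background on all arrays, by the Euclidean distance between values centred on each gene's mean. The nearest 5 were Oas2 (distance 1.08), Ifit1 (1.22), Ifit3 (1.43), Oas1a (1.45) and Mx2 (1.47), all of them known as interferon-induced genes. Oas2 read 15.64 and 15.42 in the cells labelled Pak1-/- and 7.50 and 7.54 in the others, a difference of 8.01, and the other 4 had differences of 7.07 to 7.66. With 4 arrays in 2 groups, this likeness is mostly that of the size of the group difference, and Mmp14 itself was dim on 1 of the arrays.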

How the data were processed

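Scanner output was deposited as linear spot intensity from Feature Extraction 9.5.3.1 (per the file headers), with local background and flags, before any normalization. A second table holds log2 values that the authors made from these arrays by normexp background correction and quantile normalization, with values in 24008 of 39485 rows. Its columns tracked the values computed here in the same direction (lowest r 0.9998), and it was used as an alternative.

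Here, following the methods, background was corrected with normexp (offset 50) in limma 3.58.1 (R 4.3.3). Control spots were dropped, log2 values were quantile normalized, outlier-flagged spots were set aside, and the 43020 spots were averaged to 39429 probes. A probe was kept if 2 or more of the 4 arrays had it well above background (27229, 69.1%). A probe with several spots counted as above background when a share above 0.5 of them were. Groups were compared with lmFit and eBayes (two-sided, genotype only, 2 residual degrees of freedom) and p-values adjusted by the Benjamini-Hochberg method over all probes kept. The adjusted p of a gene is that of its brightest probe, and shares of genes called count these probes. The offset, the filter and the threshold of 0.05 were set here. An exact permutation test of 2 against 2 cannot go below p = 0.333. The number of arrays limits the precision, and the offset understates changes of dim probes.

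Bounds ("at least N-fold") set the mean of the brighter group against the dim group, in which each array counts with the detection limit (its lowest value among probes well above background) unless the probe itself read higher. Probes were named by RefSeq accession from a GRCm38.p6 table (26055 of 32334 with an accession matched) and otherwise by the file. Probe positions are those of the files, on mm9, and no exon or intron annotation of that build was used. The members and gene lists were chosen with earlier results of these data known. Named genes were all 10 members, Pak1, other family genes past the threshold or with a bound of at least 2-fold, the 6 largest called differences of each further list, and the 5 genes most like the member that changed most. Replicate numbers did not pair the samples (r of their deviations -0.03). Alternatives were background correction, scaling, filter, variance prior, threshold, replicate block, probe rule, the authors' table and each array left out.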

Additional observations from a re-analysis of the deposited data

How the results depend on the processing

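The counts of 4 genes called higher and 4 lower rested most on how dim probes were treated. With probes required to be well above background on all 4 arrays, 6 of the 10 genes were tested, and 13423 of 23772 probes were called over the whole array. Of these 6 genes, 2 were called lower (Mmp3 and Mmp13 were then not tested) and 3 higher (Mmp14 was not tested). Of further family genes, 1 of 4 tested was called in place of 4 of 9. With no filter, 7 of 17 further family genes were called, and 12685 of 39429 probes. At an adjusted p under 0.01, 8878 probes were called in place of 14132 and 6 activators or partners in place of 10. Leaving out any 1 array lowered the number called both in that list and over all probes. Of 146 values of the member probes under alternatives, which leave out Mmp9, 138 gave the same call in the same direction. Of the rest, 6 lost the call (5 of Mmp10, 1 of the second Mmp11 probe), 1 gained it and 1 reversed. The last 2 were both of Mmp15 (-0.20 to 0.46 with 1 array left out, -0.20 without Pak1-/- replicate 2). With no filter Mmp10 had an adjusted p of 0.051. Of 385 values of the other named genes, 360 did not change, 16 lost the call and 9 gained it. The differences of Mmp14 ranged from 7.07 to 9.28 and of Timp1 from 4.86 to 5.80. With an offset of 0 or with the processed signal the bounds rose to 5.69 and 7.77 for Mmp3, 8.21 and 10.2 for Mmp13, and 3.98 and 4.60 for Mmp1b.

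With the replicate number as a block, 13202 probes and again 4 genes higher and 4 lower were called. Mmp21 then passed (adjusted p = 0.034), as it did with an offset of 0, the processed signal, the authors' values, an intensity trend in the prior and without either Pak1+/+ array, where the spread comes from 2 dim arrays and the p has little meaning. Samples share only a number, and the deviations of same-numbered samples were uncorrelated (r = -0.03). The signal over background limits Mmp3, Mmp9, Mmp13 and Mmp14, whose dim values have no order.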
